A study of Mus musculus with 2 samples.

Results

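Chemokine-activated neutrophils of the mouse fracture callus were defined as barcodes (droplets, each taken as 1 cell) that carried neutrophil transcripts together with transcripts of the chemokines Ccl3, Ccl4 and Cxcl2. Each member had at least 200 genes and at most 20% mitochondrial UMIs (unique molecular identifiers, 1 count per captured RNA molecule). Per 10000 UMIs of the barcode, a member held at least 50 of S100a8 plus S100a9, at least 50 of Ccl3 plus Ccl4 plus Cxcl2, under 20 of the granule genes Camp plus Ngp plus Ltf, under 10 of C1qa plus C1qb plus C1qc and under 10 of Acan, and it held no UMI of Csf1r. The rule selected 4608 of the 22304 deposited barcodes. Library MGJ gave 3523 members of 13460 filtered barcodes (26.2%, 95% Clopper-Pearson interval 25.4% to 26.9%), and library MGJ2 gave 1085 of 7806 (13.9%, 13.1% to 14.7%).

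The 2 libraries came from femoral fracture callus, the cartilage and bone that bridges a break, of wild-type mice with no further treatment than the fracture. By the study's methods these were 12-week-old male C57BL/6J mice. The design covered 10 days (5 mice) and 20 days (5 mice) after fracture, but neither library carried a day in its labels and mice within a library could not be told apart. Each library was therefore described on its own as 1 sample, the 2 libraries were not compared as time points, and the intervals below cover counting error only. Of all barcode sequences, 19 occurred in both libraries, and none of these was a member in both.

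Neutrophils are short-lived phagocytes that leave the bone marrow, enter inflamed tissue along chemokine gradients and are among the first cells in a fracture haematoma. Once stimulated there, they switch on genes under the transcription factor NF-kappaB, among them Cxcl2, which draws further neutrophils through the receptor CXCR2, and Ccl3 and Ccl4, which draw monocytes and lymphocytes. Tumour necrosis factor (Tnf) and interleukin-1 (Il1a, Il1b) from such cells act on stromal cells, chondrocytes and osteoclast precursors.

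Marker genes that the rule did not use were described first, beside the neutrophil label. At least 1 UMI of Csf3r (the G-CSF receptor), Cxcr2 or Il1r2 (the decoy receptor for interleukin-1) was found in 68.6% of the members of library MGJ and 96.9% of those of library MGJ2. For comparison, 9.89% and 14.6% of the barcodes that carried aggrecan (at least 10 Acan UMIs per 10000, with under 50 of the S100 pair and under 10 of C1q) had such a UMI, although these were far deeper, with medians of 20577 and 28233 UMIs. Among C1q macrophages (at least 50 C1q UMIs per 10000, with under 50 of the S100 pair and under 10 of Acan), with medians of 9249 and 9905 UMIs, 28.1% of 459 cells and 3 of 10 cells had one. Csf3r stood at 238 and 664 UMIs per 1000000 UMIs (CPM, a level summed over the cells of a set) in the members, against 25.5 and 25.3 CPM in the C1q macrophages and 1.60 and 3.5 CPM in the aggrecan barcodes. Retnlg, a neutrophil-secreted resistin-like protein, stood at 1810 and 3646 CPM in the members and at no more than 16.9 CPM in the macrophages and the aggrecan barcodes. Clec4d, a C-type lectin of myeloid cells, stood at 4266 and 6802 CPM in the members, at 926 and 372 CPM in the macrophages and at 33.5 and 36.3 CPM in the aggrecan barcodes. After each cell was thinned to 1000 UMIs, it was detected in 94.6% of the members and 54.2% of the macrophages of library MGJ. The members also held Tnf, Il1a and Ccrl2, the remaining markers of the label. Csf3r, Retnlg and Clec4d were thus higher in the members as a set than in the macrophages and aggrecan barcodes. Both of those sets were held under 50 of the S100 pair, so the rule itself favoured this contrast. Against the low-chemokine neutrophils described below, among cells of 1000 to 4000 UMIs, the ratios were 0.527 and 0.730 for Csf3r. They were 0.180 and 0.353 for Retnlg, and 1.14 and 1.15 for Clec4d. Ly6g, the classical surface marker of mouse neutrophils, was low, at 38.4 and 28.0 CPM. In library MGJ the share with a UMI of Csf3r, Cxcr2 or Il1r2 fell as chemokine rose. It was 81.7% at 50 to 100 chemokine UMIs per 10000 and 61.4% in the 1855 members at 500 or more. In library MGJ2 these shares were 96.25% and 96.97%. After thinning, Csf3r was detected in 22.4% of the members of library MGJ. Whether each member was a neutrophil was not tested.

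The members were shallow. A typical member of library MGJ had 1850 UMIs and 562 genes (medians), one of library MGJ2 had 2258 UMIs and 787 genes, and the lowest had 501 UMIs in both. Mitochondrial genes took a median of 0.570% and 0.291% of a member's UMIs, against 2.90% and 3.04% over all filtered barcodes, and ribosomal protein genes took 2.38% and 2.62%, against 11.9% and 16%. One transcript, Fth1, the heavy chain of the iron store ferritin, made up 10.5% and 7.51% of all UMIs of the members. Because a cell of 1000 UMIs can miss a transcript at the levels given here, absence from a cell was read as not detected at this depth.

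Values of 5 genes chose the members upwards, and these are given as a description. The chemokine sum had a median of 556 per 10000 UMIs in the members of library MGJ and 162 in those of library MGJ2, and Ccl3, Ccl4 and Cxcl2 together took 8.59% and 2.23% of all UMIs. Cxcl2 was the most abundant of them at 53915 and 16656 CPM, followed by Ccl3 at 17270 and 3255 CPM and Ccl4 at 14718 and 2377 CPM. In the aggrecan barcodes Cxcl2 still stood at 1800 CPM (library MGJ) and 120 CPM (library MGJ2). These had medians of 20577 and 28233 UMIs, against 1850 and 2258 in the members. Levels and shares in this set therefore set no bound on free RNA in the members, which was not tested. In library MGJ 11.4% of the 3095 aggrecan barcodes passed the chemokine threshold. In library MGJ2 0 of 137 did, with an approximate upper limit of 2.19% (3 over 137). The members held 44.8% and 29.8% of the chemokine UMIs of their library, so that most of these UMIs lay in other barcodes.

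The chemokines were mostly carried together. All 3 were detected in 2848 members of library MGJ (80.8%) and in 420 members of library MGJ2 (38.7%). Cxcl2 without Ccl3 or Ccl4 was found in 100 members of library MGJ and 169 members of library MGJ2, and Ccl3 or Ccl4 without Cxcl2 was found in only 4 and 5 members. Cxcl2 was the highest of the 3 in 85.9% and 92.2% of the members. Members led by Ccl3 (121 and 24 cells) had higher Tnf, at 2107 and 1129 CPM, than members led by Cxcl2, at 1365 and 559 CPM (422 and 59 UMIs in those led by Ccl3), and lower Retnlg, at 629 and 804 CPM against 1840 and 3722 CPM. Median depth was 1591 and 2178 UMIs for those led by Ccl3 and 1886 and 2268 UMIs for those led by Cxcl2.

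Cell counts ran on across the threshold. Low-chemokine mature neutrophils, which met every other gate but stayed under 50, numbered 201 and 340, so that 94.6% (93.8% to 95.3%) and 76.1% (73.8% to 78.3%) of mature neutrophils were members. Between 50 and 60 there were 29 and 56 members, and between 40 and 50 there were 34 and 52 barcodes. In library MGJ2, Tnf was at 174 CPM just outside and 268 CPM just inside the threshold, Il1b at 2694 and 2520 CPM, and Retnlg at 8152 and 7703 CPM. In library MGJ, Tnf was at 141 CPM just outside (15 UMIs) and 14.9 CPM just inside (1 UMI), Il1b at 1621 and 1883 CPM, Csf3 at 93.7 CPM (10 UMIs) and 344 CPM (23 UMIs), and Retnlg at 5126 and 10042 CPM. There Retnlg and Csf3 were thus higher just inside the threshold and Tnf lower. Only 16 and 33 low-chemokine cells had no chemokine UMI at all.

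**Figure D1:**
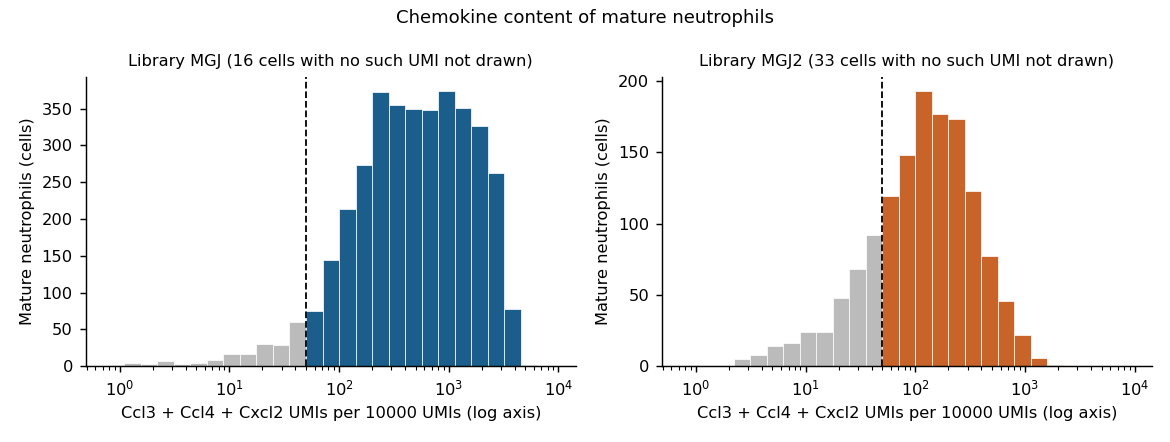
Number of mature neutrophils (vertical axis) by their Ccl3, Ccl4 and Cxcl2 UMIs per 10000 UMIs (horizontal log axis) in library MGJ (left) and library MGJ2 (right); coloured bars are members, grey bars are low-chemokine cells and the dashed line is the threshold of 50. The counts run on across the threshold in both libraries, and the members of library MGJ reach further right, with a median of 556 against 162.

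The promoters of these genes were read next, because Cxcl2 is a known target of NF-kappaB. RefSeq promoter windows on GRCm38.p6, from 250 bases before to 50 bases after a gene's start, were found for 10 of the 12 genes named further on as having the highest ratios, and for 5 of the 6 markers of the label. Ccl4, Csf3 and Il10 had no entry. A kappaB motif (GGG, any 2 bases, TT, any base, CC, on either strand) was searched for, and occurred in 1480 of all 27025 genes with a promoter (5.48%). The stretches below show the matches in capitals, each on the strand of its gene.
Cxcl2, chr5:90903782-90903850, plus strand, matches beginning 97 and 78 bases before the start: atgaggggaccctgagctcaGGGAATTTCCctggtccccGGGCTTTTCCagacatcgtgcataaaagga
Cxcl3, chr5:90786008-90786057, plus strand, 73 bases before the start: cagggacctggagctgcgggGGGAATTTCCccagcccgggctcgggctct
Ccrl2, chr9:111057545-111057594, minus strand, 56 bases before the start: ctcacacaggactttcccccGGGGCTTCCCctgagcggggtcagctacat
Nlrp3, chr11:59541363-59541412, plus strand, 186 bases before the start of its second promoter, matched on the opposite strand: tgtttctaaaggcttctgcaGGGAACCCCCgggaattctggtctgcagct
Nfkbia, chr12:55492648-55492696, minus strand, 29 bases before the start, matched on the opposite strand: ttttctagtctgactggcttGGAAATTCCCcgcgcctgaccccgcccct
Cxcl2 and Cxcl3, both on chromosome 5, share the same 10 letters at their first match. In all, 3 of the 10 genes with the highest ratios (Cxcl3, Ccrl2 and Nlrp3) and 2 of the 5 markers (Cxcl2 and Ccrl2) held a match. Ccl3, Tnf, Il1a, Nr4a3, Plet1, Eldr, Lsmem1 and Fam71f2 held none in their windows. Nfkbia belongs to neither set and was added as a feedback inhibitor of NF-kappaB. The AP-1 letters TGANTCA, which read the same on both strands, were present in 2425 genes (8.97%) and occurred in the windows of Il1a and Plet1, neither of which held a kappaB match. A match is a description of letters and not a site shown to be bound, and the motif was chosen with the results known.

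Next, every gene was compared between the members and the low-chemokine mature neutrophils of the same library. The ratio of CPM is a description, since the cells were chosen by the same transcripts, and a gene was counted as higher or lower when its ratio was at least 2 or at most 0.5, among genes with at least 50 UMIs over both sets. Of 6812 such genes in library MGJ, 8.53% were higher and 41.9% lower. Of 5492 genes in library MGJ2, 8.52% were higher and 34.7% lower. Past the same bound in both libraries were 288 genes higher (5.46% of 5270) and 1484 lower (28.2%).

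The low-chemokine set was not made of mature neutrophils alone, which bears on all these ratios. In each library 44 of its barcodes had over 5000 UMIs and these held 70.8% and 56.6% of its UMIs, against 15.5% and 10.6% in the members. Primary granule genes (Mpo, Elane, Prtn3 and Ctsg), which are made by marrow progenitors, reached 20 per 10000 UMIs in 13 and 21 low-chemokine barcodes and in 2 and 0 members. Mesenchymal collagen and bone matrix genes reached 50 per 10000 in 33 and 3 low-chemokine barcodes and in 83 and 1 members. All ratios were therefore also taken between cells of 1000 to 4000 UMIs, where 10.7% of genes were higher and 13.2% lower in library MGJ, 2.97% higher and 2.77% lower in library MGJ2, and 1.58% and 1.07% in both. That left 3052 and 989 members and 127 and 255 low-chemokine cells. These depth-matched ratios stand beside the ones below. They are given without intervals and are less certain than the ratios over all depths where UMIs are few.

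The 12 genes with the highest ratios in both libraries were Csf3, Il1a, Plet1, Eldr, Cxcl3, Lsmem1, Tnf, Ccrl2, Il10, Fam71f2, Nlrp3 and Nr4a3. Each kept a ratio of at least 2 in both libraries in every setting in which it could be computed, including the 10 that could be computed at matched depth. The settings share most of their UMIs, and some genes had few in the low-chemokine cells of all depths. These were Eldr (1 and 6 UMIs), Lsmem1 (6 and 16), Il10 (7 and 6), Fam71f2 (6 and 9) and Plet1 (14 and 10).

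Tnf, the cytokine that gives its name to the tumour necrosis factor family, stood at 1323 CPM in the members of library MGJ and 58.8 CPM in the low-chemokine cells, a ratio of 22.5 (17.5 to 29.5). In library MGJ2 it stood at 576 and 97.9 CPM, a ratio of 5.88 (5.00 to 6.95). At matched depth the ratios were 12.4 and 3.07. Members were the highest of the sets compared, since granule-rich neutrophils (the same gates with at least 20 of Camp plus Ngp plus Ltf and any chemokine level) had 135 and 26.8 CPM, C1q macrophages 157 and 84.5 CPM and aggrecan barcodes 76.4 and 2.50 CPM. After each cell was thinned to 1000 UMIs, Tnf was detected in 40.4% of the members of library MGJ and 33.5% of those of library MGJ2 (51.8% and 50.7% before thinning), in 9.55% and 16% of the low-chemokine cells, and in 5.86% and 0.741% of the aggrecan barcodes, whose medians were 20577 and 28233 UMIs before thinning.

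Il1a, an alarmin of the interleukin-1 family, was at 907 and 177 CPM in the members and at 27.4 and 24.0 CPM in the low-chemokine cells. The ratios were 33.0 (22.8 to 49.8) and 7.37 (5.33 to 10.4), and 27.9 and 4.04 at matched depth. Low-chemokine cells of all depths held only 28 and 40 UMIs of Il1a. It was detected in 34.6% and 13.7% of the thinned members, against 1.18% and 0 of the aggrecan barcodes. The latter was 0 of 135, with an approximate upper limit of 2.22% (3 over 135). The C1q macrophages of library MGJ2 had 118 CPM of Il1a, but these were only 10 cells.

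Ccrl2, an atypical receptor that binds chemerin and does not signal, was at 1733 and 1514 CPM in the members against 198 and 258 CPM, with ratios of 8.75 (7.62 to 10.1) and 5.86 (5.31 to 6.49), and 3.41 and 2.97 at matched depth. It was detected in 56.6% and 55.2% of the thinned members, in 22.5% and 24.4% of low-chemokine cells and in under 2% of the aggrecan barcodes. Its level was thus close in the members of both libraries, while Tnf and Il1a were higher in those of library MGJ.

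Csf3, which encodes G-CSF, the growth factor of neutrophils themselves, was at 707 and 166 CPM against 27.4 and 11.4 CPM, with ratios of 25.8 (17.8 to 38.8) and 14.5 (9.19 to 24.4). The depth-matched ratios were 36.9 and 6.23, and rest on few UMIs, since low-chemokine cells of all depths held only 28 and 19. A minority of cells carried it, 22.1% and 9.11% of the thinned members. Nlrp3, the sensor of the inflammasome that activates interleukin-1 beta, was at 1351 and 2691 CPM against 138 and 490 CPM, with ratios of 9.78 and 5.49 (4.61 and 2.80 at matched depth). It was detected in 60.8% and 73.2% of the thinned members. Il10, an anti-inflammatory cytokine, was low in the members at 38.5 and 37.7 CPM, and the C1q macrophages had more, at 377 and 608 CPM. Eldr, Lsmem1 and Fam71f2, whose roles in neutrophils are not well known, stayed under 60 CPM in both libraries.

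**Figure D2:**
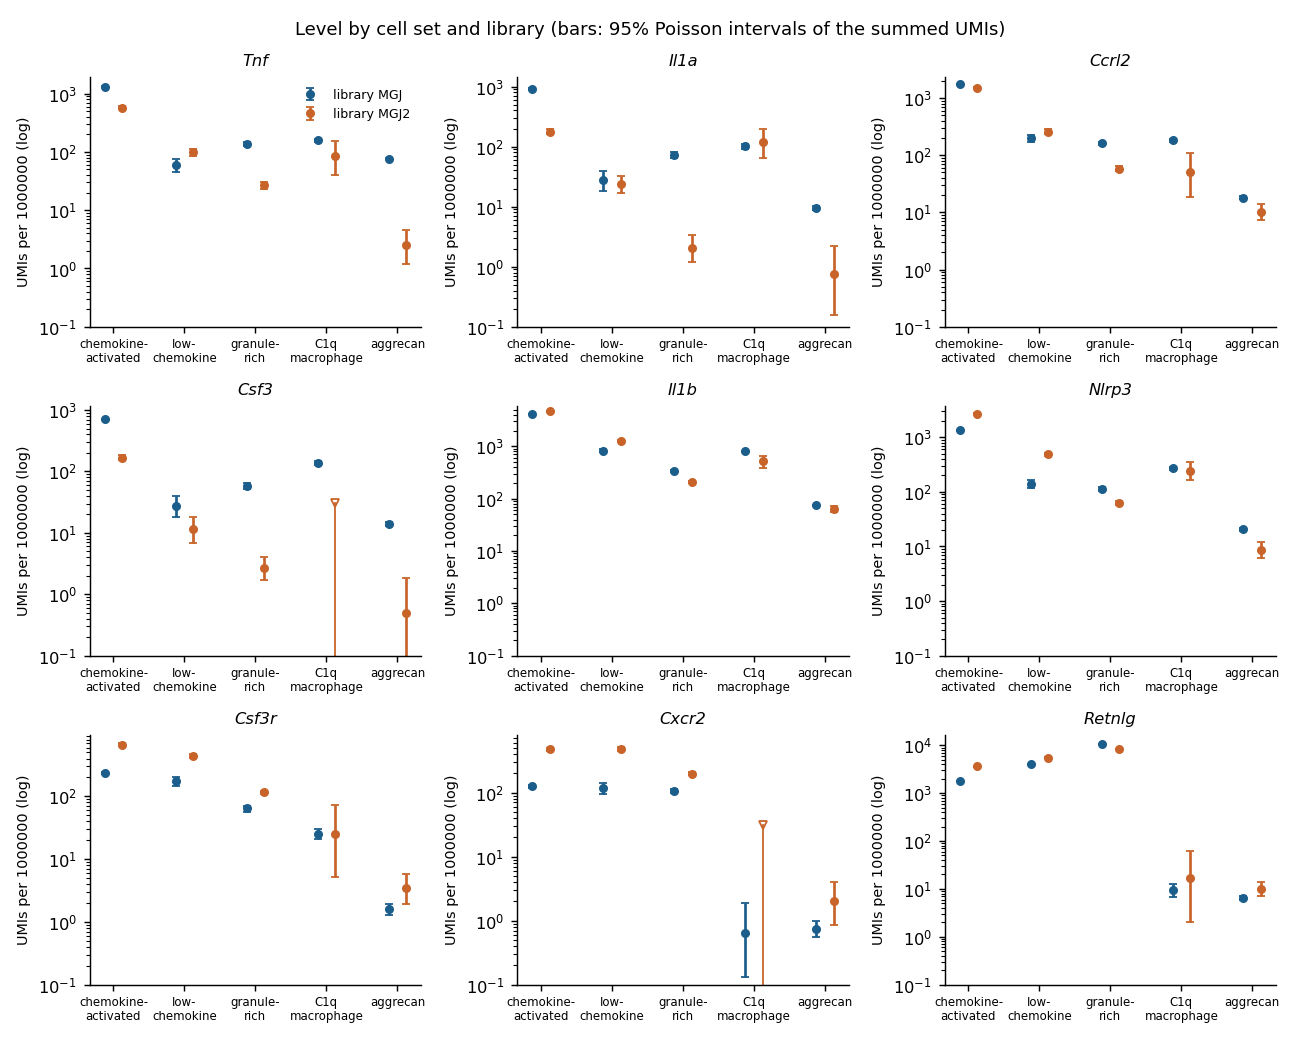
Level of 9 genes (vertical log axis, UMIs per 1000000) in 5 sets of cells (horizontal axis) in library MGJ (blue) and library MGJ2 (orange); bars are 95% Poisson intervals of the summed UMIs and an open triangle with a line marks the upper limit of a set with no UMI. Tnf, Il1a, Ccrl2, Csf3, Il1b and Nlrp3 are highest in the chemokine-activated set in both libraries, Csf3r and Cxcr2 separate the neutrophil sets from the macrophages and aggrecan barcodes, and Retnlg is highest in the granule-rich set.

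**Figure D3:**
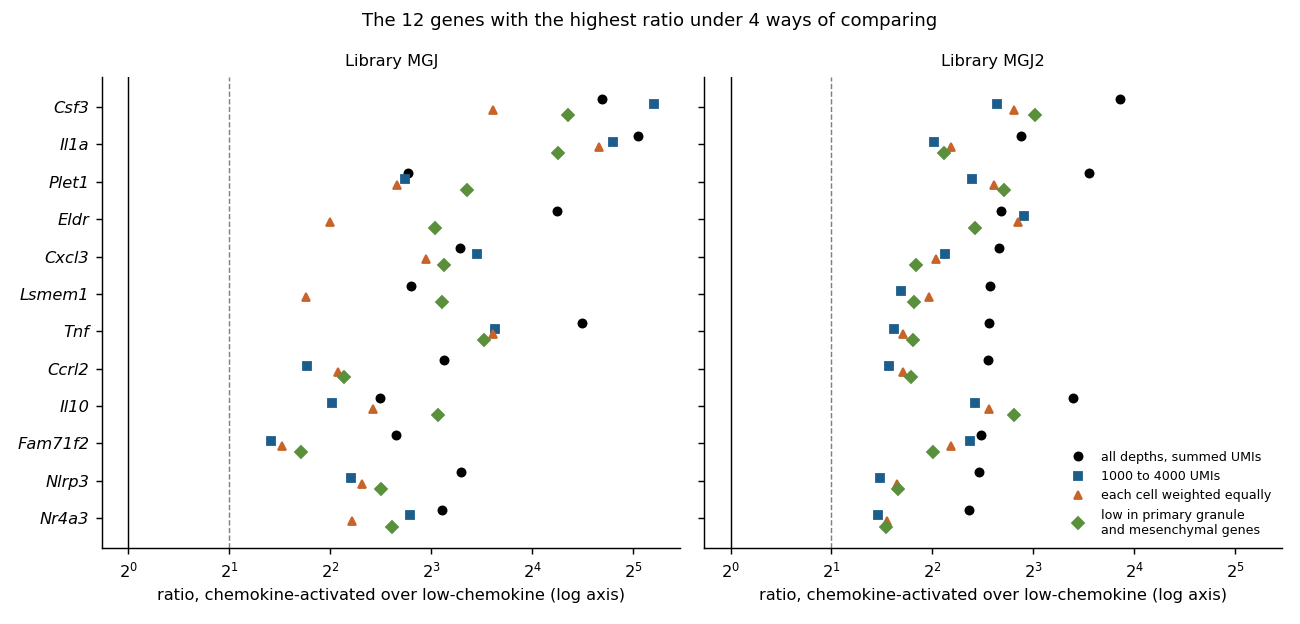
Ratio of CPM, chemokine-activated over low-chemokine neutrophils (horizontal log axis), of the 12 genes with the highest ratios (vertical axis), in library MGJ (left) and library MGJ2 (right) under 4 ways of comparing, marked by shape. All points lie right of the dashed line at 2; Eldr and Lsmem1 have no depth-matched point in library MGJ because no low-chemokine cell of that depth had a UMI, and Tnf moves from 22.5 to 12.4 and from 5.88 to 3.07 at matched depth.

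Part of the cytokine list was higher in the members. Of the 13 cytokine and growth factor genes of the list that could be compared in both libraries, 8 were higher in both, where 5.46% of all genes were (Tnf, Il1a, Il1b, Il1rn, Il10, Osm, Csf1 and Csf3). Over the list's genes tested in each library, the median log2 ratio was 1.72 and 1.61, against -0.74 and -0.40 over all genes. At matched depth 3 of 10 were, where 1.58% of all genes were, namely Tnf, Il1a and Csf3, with medians of 1.18 and 0.68 against -0.16 and -0.08. Il1b, the main secreted interleukin-1, was at 4150 and 4648 CPM in the members and 827 and 1251 CPM in the low-chemokine cells, and its depth-matched ratios were 2.99 and 1.96. Il1rn, which encodes the antagonist of the same receptor, was as abundant, at 4977 and 5357 CPM, with depth-matched ratios of 2.21 and 1.87. Il6 was scarce, at 32.7 and 2.24 CPM in the members, and Vegfa, the vascular growth factor, was at 80.4 and 154 CPM against 101 and 147 CPM.

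Likewise, the list of NF-kappaB feedback and target genes was shifted. In both libraries 23 of its 30 genes were higher and none was lower, where 5.46% and 28.2% of all genes were. The median log2 ratios were 1.67 and 1.47, against -0.74 and -0.40 over all genes. At matched depth 8 of 29 were higher, where 1.58% of all genes were. The medians there were 1.16 and 0.70, against -0.16 and -0.08. Among the 8 were Nfkbia, Nfkbib, Nfkbid and Nfkbiz, which belong to 1 family of NF-kappaB regulators. The others were the ubiquitin-editing brake Tnfaip3, the receptor adaptor Traf1, the prostaglandin synthase Ptgs2 and the stress gene Gadd45b. Nfkbia, which holds NF-kappaB in the cytoplasm, was at 2809 and 3141 CPM against 771 and 942 CPM, with depth-matched ratios of 2.59 and 2.24. Nfkbiz, a nuclear co-activator of the same family, had depth-matched ratios of 4.43 and 3.66. Icam1, an adhesion molecule, was at 240 and 203 CPM against 44.1 and 72.7 CPM, and its ratio at matched depth was 4.18 in library MGJ but 1.69 in library MGJ2. Cd83 did not pass the bound in either library and was at 6.90 and 44.8 CPM.

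Immediate-early genes, which encode transcription factors and phosphatases induced within minutes of a stimulus, were more often higher than lower. Of 27 compared, 13 were higher in both libraries and Klf4 was lower, where 5.46% and 28.2% of all genes were. The medians were 0.90 and 1.18. At matched depth 6 of 26 were higher (Junb, Egr1, Dusp2, Maff, Nr4a1 and Nr4a3) and none was lower, with medians of 0.75 and 0.38. Over all genes 1.58% were higher and 1.07% lower there. Nr4a3, an orphan nuclear receptor, was at 278 and 718 CPM against 32.3 and 139 CPM, with depth-matched ratios of 6.92 and 2.74. Fos went the other way, at 109 and 99.0 CPM in the members against 387 and 118 CPM, and its depth-matched ratios were 0.937 and 0.486. Junb, a partner of Fos in AP-1, was at 1675 and 2805 CPM against 390 and 761 CPM, with depth-matched ratios of 3.12 and 2.08.

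Among the chemokines outside the rule, Cxcl3, a close relative of Cxcl2, was at 4092 and 273 CPM against 421 and 43.3 CPM, with depth-matched ratios of 10.9 and 4.35. Cxcl1 was at 1014 and 53.0 CPM in the members, below the 3720 and 95.1 CPM of the aggrecan barcodes, and its depth-matched ratios were 2.54 and 9.25. Ccl5, Ccl9, Cxcl10 and Cxcl16 stayed between 1.49 and 133 CPM in the members. The 13 chemokines of the list summed to 6569 and 1638 CPM in the members, more than those given here. Ccl6, whose level is not given here, was higher in library MGJ and within the bounds in library MGJ2. In all, 1 of 6 comparable chemokines was higher in both libraries, and 2 of 6 at matched depth, against 5.46% and 1.58% of all genes.

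Receptors were described separately from the signals. Of 9 chemoattractant receptors, 4 were higher in both libraries (Ccrl2, Ccr1, Fpr2 and Ptafr), and at matched depth Ccrl2 alone of 8. The shares of all genes were 5.46% and 1.58%. Ccr1, through which Ccl3 acts, was at 1298 and 1880 CPM in the members against 429 and 790 CPM, and its depth-matched ratios were 1.20 and 1.15. Cxcr2, the receptor for Cxcl2, stood at 125 and 472 CPM against 117 and 484 CPM, and its ratio was 0.354 and 0.494 at matched depth. After thinning it was detected in 10.1% and 30.3% of the members, 18.5% and 46.6% of low-chemokine cells, and 0.0982% and 0 of the aggrecan barcodes, the latter again 0 of 135. Cxcr4, which retains neutrophils in marrow, was at 251 and 1564 CPM against 148 and 1119 CPM, with depth-matched ratios of 0.669 and 0.726.

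Genes of neutrophil identity differed with the depth compared. Of 14 genes, 3 were higher in both libraries (G0s2, Trem1 and Clec4d) and Cd177 was lower, where 5.46% and 28.2% of all genes were. The median log2 ratios were 0.35 and 0.36, against -0.74 and -0.40 over all genes. At matched depth none was higher in both and 5 were lower, where 1.58% and 1.07% of all genes were. The 5 were Cxcr2, Retnlg, Ly6g, Mmp8 and Cd177. Retnlg had depth-matched ratios of 0.180 and 0.353, the adhesion protein Cd177 of 0.152 and 0.235, and the collagenase Mmp8 of 0.271 and 0.493. Csf3r was nearer to even, with depth-matched ratios of 0.527 and 0.730. Of the secondary and tertiary granule genes, which belong to earlier stages of maturation, 0 of 14 were higher and 4 lower in both libraries, a share close to the 28.2% of all genes that were lower. At matched depth 0 of 13 were higher and 2 lower, where 1.07% of all genes were lower. The 2 were Mmp8 and Cd177, which the identity list also holds. Lcn2, the siderophore-binding lipocalin, differed by library, with depth-matched ratios of 1.91 and 0.771.

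The lists on survival and metabolism had no gene higher in both libraries at matched depth. Over all genes 5.46% were higher and 28.2% lower in both libraries, and 1.58% and 1.07% at matched depth. Of 17 genes of survival and apoptosis, 7 were higher in both libraries, among them Mcl1 at 1555 and 2558 CPM against 651 and 1200 CPM, and the members of the Bcl2a1 cluster, whose near-identical copies Bcl2a1a, Bcl2a1b and Bcl2a1d can exchange reads. At matched depth 0 of 14 were, although 7 of 17 were still higher in library MGJ, where 10.7% of all genes were. There Bcl2a1d had ratios of 5.40 and 1.57, Bcl2a1a of 2.76 and 1.68 and Mcl1 of 1.30 and 1.17. Of 19 genes of the NRF2, iron and lysosome list 5 were higher in both libraries, and 0 at matched depth. There the cystine transporter Slc7a11, at 3765 and 5388 CPM in the members, had ratios of 1.47 and 1.49, and Fth1 had 1.11 and 1.14. The list of tissue residence and ageing gave 4 of 13 and then 0, with Cd274 (PD-L1) at depth-matched ratios of 3.29 and 1.64. Glycolysis and hypoxia genes gave 1 higher and 1 lower of 22, and none of 20 at matched depth. The glucose transporter Slc2a3 was the one higher, at 126 and 286 CPM against 41.2 and 90.7 CPM.

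No interferon-stimulated gene passed the bound in both libraries. In library MGJ 6 of 17 were higher and 0 lower, where 8.53% and 41.9% of all genes were. In library MGJ2 4 of 14 were higher and 1 lower, where 8.52% and 34.7% of all genes were. The median log2 ratios were 0.91 and 0.53, against -0.74 and -0.40 over all genes. None of 14 was higher or lower in both, where 5.46% and 28.2% of all genes were. At matched depth none of 12 was, where 1.58% and 1.07% of all genes were. The medians there were 0.01 and -0.24, against -0.16 and -0.08. Isg15, a ubiquitin-like protein induced by interferon, was at 85.7 and 68.3 CPM against 52.0 and 32.4 CPM, with depth-matched ratios of 1.05 and 1.0. Of 8 comparable genes of the list of osteoclast and bone signals and receptors, 4 were higher in both libraries and 0 of 7 at matched depth. The shares of all genes were 5.46% and 1.58%. The 4 were the ligands Osm and Csf1, which the cytokine list also holds, and the receptor chains Tnfrsf1b and Il1rap. Csf1, the growth factor of macrophages and osteoclasts, was at 377 and 432 CPM in the members and Osm at 252 and 417 CPM. Tnfsf11, which encodes RANKL, was at 14.4 and 1.49 CPM in the members, below the 22.8 and 17.0 CPM of the aggrecan barcodes. Of 7 eicosanoid genes, Ptgs2 and the opposite-strand transcript Ptgs2os2 were higher and Ptgs1 and Lta4h lower, where 5.46% and 28.2% of all genes were. Ptgs2 alone of 3 was higher at matched depth, with ratios of 6.44 and 3.49, where 1.58% of all genes were.

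**Figure D4:**
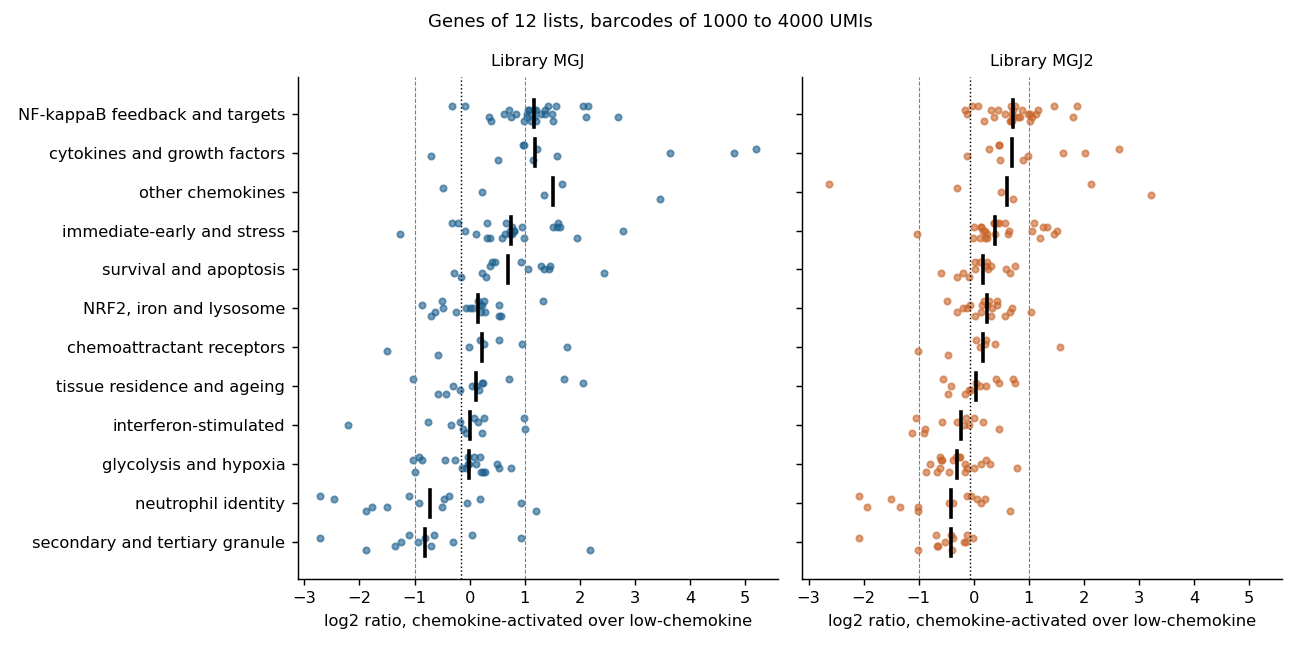
Log2 ratio of chemokine-activated over low-chemokine neutrophils among barcodes of 1000 to 4000 UMIs (horizontal axis), 1 point per gene of 12 lists (vertical axis) in library MGJ (left) and library MGJ2 (right); black bars are list medians, the dotted line is the median of all genes (-0.16 and -0.08), dashed lines mark ratios of 0.5 and 2, and a gene with no UMI in one set is not drawn. The NF-kappaB list lies to the right, with medians of 1.16 and 0.70, and the identity and granule lists lie to the left.

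The 12 genes with the lowest ratios were Ms4a3, Ctsg, Mpo, Elane, Fcnb, Prtn3, Prss57, Cst7, Pclaf, Nkg7, Mcm3 and Dut. The list joins primary granule genes with genes of DNA replication, such as Mcm3 and Dut. All 5 comparable primary granule genes were lower in both libraries, where 28.2% of all genes were. Mpo was at 18.7 and 7.10 CPM in the members and at 747 and 2845 CPM in the low-chemokine set, while only 6.47% and 7.35% of low-chemokine barcodes had a UMI of it. At matched depth only 2 of the 7 that could be computed kept a ratio of 0.5 or less in both libraries. Without the barcodes rich in primary granule or mesenchymal genes, 5 of 12 did.

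The members were next compared among themselves by their amount of chemokine. They were divided by their chemokine UMIs per 10000 into 50 to 100, 100 to 200, 200 to 500 and 500 or more, which held 219, 487, 962 and 1855 cells in library MGJ and 267, 370, 349 and 99 cells in library MGJ2. Median depth differed little over the 4 bins, from 1741 to 1931 UMIs in library MGJ and from 2244 to 2275 UMIs in library MGJ2. A gene was counted as rising or falling when its CPM ran in 1 direction over all 4 bins. Of 3474 genes with at least 50 UMIs in the members of each library, 3.22% rose and 7.86% fell in both.

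Tnf ran from 133 CPM in the lowest bin through 211 and 381 to 2323 CPM in the highest bin of library MGJ, a ratio of 17.4 (13.9 to 22.2). In library MGJ2 it ran from 277 through 427 and 787 to 1376 CPM, a ratio of 4.97 (4.14 to 5.97). Most of the increase in library MGJ thus lay between the last 2 bins. Il1a ran from 63.0 to 1583 CPM and from 79.9 to 498 CPM, and Ccrl2 from 481 to 2558 CPM and from 917 to 3095 CPM. Csf3 ran from 144 to 1155 CPM and from 26.2 to 640 CPM, and had the widest span of these 4 genes in library MGJ2, a ratio of 24.4 (15.1 to 41.8).

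For the lists, the shares of all genes to compare with were 3.22% rising and 7.86% falling in both libraries. Of 11 cytokine genes 6 rose in both libraries (Tnf, Il1a, Il1b, Il1rn, Osm and Csf3). So did 18 of 30 NF-kappaB genes and 10 of 26 immediate-early genes, and none of these lists had a gene that fell in both. Il1b ran from 1602 to 5823 CPM and from 2711 to 8846 CPM, Nfkbia from 1116 to 3818 CPM and from 1950 to 5075 CPM, and Nlrp3 from 423 to 1874 CPM and from 1276 to 6414 CPM. Among survival genes, 4 of 15 rose, with Bcl2a1b from 574 to 2350 CPM and from 1166 to 1682 CPM. Fth1 held no such order and varied between 88542 and 110533 CPM and between 70987 and 78852 CPM. Of 11 interferon-stimulated genes 0 rose and 1 (Ifitm3) fell in both libraries, close to the shares of all genes.

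Of the 14 identity genes 4 fell in both libraries, Cxcr2, Retnlg, Ly6g and Mmp8, and G0s2 rose. Over all genes 7.86% fell and 3.22% rose. Retnlg ran from 5770 to 784 CPM and from 6519 to 910 CPM, ratios of 0.136 (0.129 to 0.143) and 0.140 (0.120 to 0.161), and so was alike in both libraries at both ends. Cxcr2 ran from 272 to 66.5 CPM and from 606 to 160 CPM. Lyz2, encoding lysozyme, also fell in both. Csf3r showed no order and ended near its start, with 241 and 207 CPM in the first and last bin of library MGJ, and 612 and 613 CPM in those of library MGJ2. Leaving the rule's genes out of the denominators gave a ratio of 19.6 and 5.12 for Tnf and 0.153 and 0.144 for Retnlg. The chemokine and S100 thresholds pull against each other in this division, as the median of S100a8 plus S100a9 per 10000 UMIs went from 1511 to 668 and from 400.1 to 294 over the bins.

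**Figure D5:**
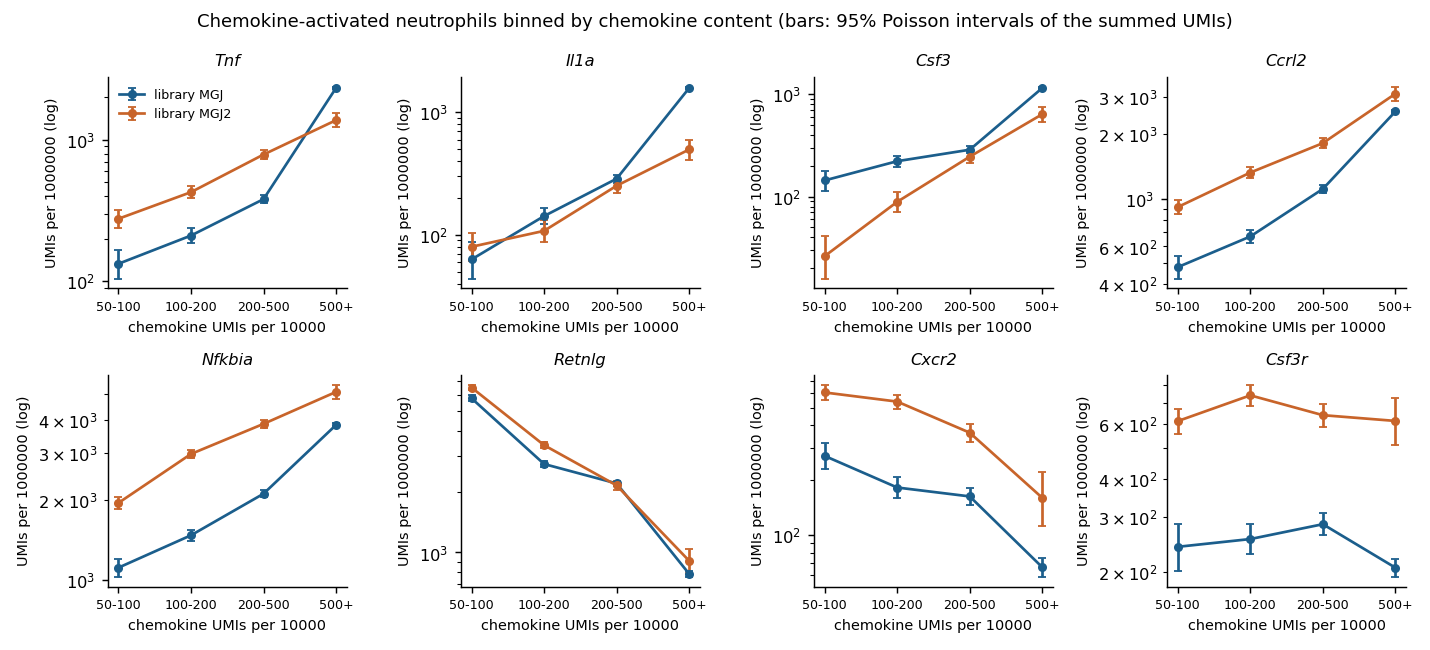
Level of 8 genes (vertical log axis, UMIs per 1000000) in members divided into 4 bins by chemokine UMIs per 10000 (horizontal axis), in library MGJ (blue) and library MGJ2 (orange), with 95% Poisson intervals. Tnf, Il1a, Csf3, Ccrl2 and Nfkbia run upwards in both libraries, Retnlg and Cxcr2 run downwards, and Csf3r has no order.

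Markers of other cell types were summed over each list. Macrophage and monocyte markers reached 859 and 1197 CPM in the members, against 25951 and 16155 CPM in the C1q macrophages, and 1 and 2 of the 14 genes were at 0. Of 5 that could be compared, 3 were higher in the members in both libraries, where 5.46% of all genes were. These were Adgre1, which encodes the macrophage marker F4/80, and Cd68 and Mpeg1, which neutrophils also express. At matched depth none of the 5 was higher in both libraries. The ratios were 3.70 and 1.13 for Adgre1, 0.988 and 1.07 for Cd68 and 1.03 and 1.13 for Mpeg1. Adgre1 was at 28.1 and 24.3 CPM in the members and at 425 and 760 CPM in the macrophages, and Apoe was at 129 and 63.9 CPM against 21817 and 10764 CPM in the macrophages. Markers of T and NK cells summed to 27.5 and 83.3 CPM, of B cells to 44.2 and 154 CPM, of basophils and mast cells to 7.53 and 13.4 CPM and of eosinophils to 7.15 and 29.5 CPM. Dendritic cell and MHC class II genes summed to 248 and 743 CPM, and osteoclast genes to 215 and 562 CPM, the latter with Mmp9 that neutrophils share.

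Cartilage and bone transcripts were present at a level that differed between the libraries. Chondrocyte markers summed to 1708 CPM in the members of library MGJ and 258 CPM in those of library MGJ2, against 80206 and 90353 CPM in the aggrecan barcodes. Col2a1 was detected in 58.4% and 9.58% of the thinned members, and in 55.6% and 8.64% of the low-chemokine cells. Over the chemokine bins Col2a1 was without order, with a ratio of 1.05 (0.955 to 1.16) and 1.04 (0.605 to 1.72) between the last and the first bin. Fibroblast and osteoblast markers summed to 3924 and 159 CPM in the members and to 26199 and 2458 CPM in the low-chemokine cells, and erythroid markers to 938 and 375 CPM in the members and 10503 and 3.60 CPM in the low-chemokine cells. The part of these transcripts in the ratios was not tested beyond the settings given here.

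The share of doublet calls, barcodes taken to hold 2 cells, was 1.75% of the members (19 cells) and 6.18% of the low-chemokine cells in library MGJ2, and fell from 4.49% in the lowest to 0% in the highest chemokine bin. In library MGJ the caller marked no barcode of 13460, so it had not worked there. Of the barcodes that passed the S100 and chemokine thresholds, 4246 and 1342, the granule gate removed 215 and 68, the C1q gate 58 and 0, the aggrecan gate 155 and 0 and the Csf1r gate 374 and 200.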

How the data were processed

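The authors deposited 2 filtered matrices of raw UMI counts, 1 per library, with no normalization. Per the file headers, Cell Ranger 4.0.0 produced them, and the submitters' processing notes name GRCm38 and Seurat without their roles. Libraries were 10x Chromium 3′ version 3 on a NovaSeq.

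From these counts, barcodes with fewer than 200 genes or over 20% mitochondrial UMIs were removed and the gates were applied in each library. Levels were summed UMIs per 1000000 with exact Poisson 95% intervals, ratios had exact conditional binomial intervals, and shares had Clopper-Pearson intervals. Detection was taken after thinning to 1000 UMIs, which left out 221 and 31 members. Doublets were called with Scrublet (scanpy 1.11.5) and kept. The rule's 13 genes were left out of the counts of genes. Beyond the rule and the lists, the named genes were the 12 with the highest and the 12 with the lowest ratio, ranked by the less extreme library. The members and lists were chosen with earlier results of these data known. No test was run, as each library is 1 sample without a day. Calculations used Python 3.11.15, numpy 2.4.6, scipy 1.17.1, pandas 2.3.3 and matplotlib 3.10.9, and were tested on simulated data. Of the listed genes, Mx1 and Azu1 were not found by symbol.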

Additional observations from a re-analysis of the deposited data

Results flagged for a closer look

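In data outside the comparisons, 32 barcodes of library MGJ that had been removed met all gene gates of the members. Of these, 28 were removed for mitochondrial UMIs and 4 for few genes. They had a median of 2656 UMIs, with 5.34% of their UMIs in Ccl3, Ccl4 and Cxcl2, and Tnf at 787 CPM (66 UMIs). In library MGJ2 there was 1 such barcode.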

How the results depend on the processing

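The share of mature neutrophils past the threshold moved from 94.6% to 88.7% and from 76.1% to 57.4% with a chemokine threshold of 100. In library MGJ it was 95.4% with an S100 threshold of 200 and 95.7% in sets low in primary granule and mesenchymal genes, a setting chosen after seeing the data. The count of genes higher, 581 and 468, was 343 and 220 at a chemokine threshold of 100, 1178 and 1134 against low-chemokine cells under 10, and 4009 and 2293 with no minimum of UMIs. In library MGJ2 it was 128 with each cell weighted equally, 103 at 1000 to 4000 UMIs and 115 in the sets low in granule and mesenchymal genes. The count of genes lower, 2855 and 1905, was 612 and 96 at 1000 to 4000 UMIs, 1162 and 302 in the sets low in granule and mesenchymal genes, 7682 and 7127 with no minimum and 921 and 492 with at least 200 UMIs. It was 1548 in library MGJ with an S100 threshold of 200 and 1070 in library MGJ2 with cells weighted equally. At 1000 to 4000 UMIs 152 of 172 ratios stayed on their side of 1, and Csf3r, Cxcr4, Hdc and Mmp9 crossed it in both libraries. Of ratios past 2 or 0.5, those that crossed were Klf4 (1.12), Hdc (0.769), Trem1 (0.963) and Cd68 (0.988) in library MGJ, and Mpo (5.10) and Elane (1.48) in library MGJ2. In the sets low in granule and mesenchymal genes 163 of 182 stayed, and again Csf3r, Cxcr4 and Mmp9 crossed in both libraries. Of ratios past 2 or 0.5, those that crossed were Nkg7 (1.63), Fos (1.04) and Klf4 (1.22) in library MGJ and Mpo (2.19) and Elane (1.90) in library MGJ2. Over 11 alternatives, 1911 of 1986 ratios stayed on their side of 1 and 638 moved by over 1.5 times. Asking for at least 3 chemokine UMIs in each member could change nothing, since every member had them. Removing doublet calls, which is among the 11, could change nothing in library MGJ, where no barcode was called. The causes were not tested, apart from the minimum of UMIs, which sets how many genes enter. No paired analysis was possible because neither library has a group. Depth limits single cells, since a gene at 1000 CPM gives 1 UMI in 1000.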
